A study of Mus musculus with 15 samples.

Results

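The vascular endothelial growth factor (VEGF) and angiopoietin genes were taken from a list of 10 names, Vegfa, Vegfb, Vegfc, Flt1, Kdr, Nrp1, Angpt1, Angpt2, Tek and Tie1, and all 10 were found by gene symbol among the 46078 genes counted. They were followed in podocyte fractions of mouse kidney, in a study that asked whether an antibody against the immune checkpoint receptor PD-1 alters the aged kidney. All mice were C57BL/6J males. Young mice were 4 months old and received no antibody (n = 5 libraries). Aged mice were 21 months old when they entered and received intraperitoneal injections of 12 mg/kg once weekly for 8 weeks, either of the control antibody IgG2a, clone 2A3 (aged IgG2a, n = 4), or of the neutralizing anti-PD-1 antibody, clone RMP1-14 (aged aPD1ab, n = 4), whose sample titles give 47 days. No uninjected aged group and no antibody-injected young group entered, so age and injection cannot be told apart in a comparison of aged with young mice. The podocyte fraction was the cells of digested kidney cortex that were held on magnetic columns by antibodies to nephrin, a protein of the podocyte slit diaphragm, so it was enriched rather than pure. Each sample title carries a number of its own, and mice are taken as the replicates.

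VEGF-A is made by podocytes and acts across the glomerular filter on the endothelial cells that face them. It binds the receptor tyrosine kinases VEGFR2, the product of Kdr and the main signaling receptor, and VEGFR1, the product of Flt1, which binds ligand tightly and also exists as a soluble decoy. Neuropilin-1, the product of Nrp1, is a co-receptor. Angiopoietin-1, from mural cells and podocytes, activates the endothelial receptor Tie2, the product of Tek, and stabilizes vessels, whereas angiopoietin-2, released by endothelial cells, mostly opposes it. Tie1 is a related receptor without a high-affinity angiopoietin ligand that modulates Tie2.

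Vegfa and Vegfb were the ligands that differed most between the fits described further on. Tek and Tie1 encode receptors of 1 family and had lower mean levels in aged mice, by amounts whose inequality was not tested. The promoters of these 4 genes are printed for orientation. Each is the stretch of 250 bases before the most upstream RefSeq start in GRCm38.p6, written 5′ to 3′ on the strand of the gene. It covers chr17:46032378-46032627 on the minus strand for Vegfa, chr19:6987652-6987901 on the minus strand for Vegfb, chr4:94739039-94739288 on the plus strand for Tek and chr4:118489850-118490099 on the minus strand for Tie1. Capitals mark GC boxes (GGGCGG) and ETS cores (GGAAG), the letters bound by Sp1 and by ETS factors, on either strand. Most of the Tie1 window lies inside the Tie1 gene as GENCODE annotates it, while the other 3 windows lie outside their genes. No GC box overlapped an ETS core.
Vegfa: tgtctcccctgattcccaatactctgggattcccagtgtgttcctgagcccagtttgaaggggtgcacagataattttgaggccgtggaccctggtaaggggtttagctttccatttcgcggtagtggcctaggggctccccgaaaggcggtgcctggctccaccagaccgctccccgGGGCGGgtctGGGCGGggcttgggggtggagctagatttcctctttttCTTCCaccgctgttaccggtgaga
Vegfb: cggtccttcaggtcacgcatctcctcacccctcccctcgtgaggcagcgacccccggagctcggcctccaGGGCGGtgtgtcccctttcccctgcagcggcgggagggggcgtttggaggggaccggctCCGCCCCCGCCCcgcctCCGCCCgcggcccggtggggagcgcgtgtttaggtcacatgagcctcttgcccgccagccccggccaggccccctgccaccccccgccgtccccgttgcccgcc
Tek: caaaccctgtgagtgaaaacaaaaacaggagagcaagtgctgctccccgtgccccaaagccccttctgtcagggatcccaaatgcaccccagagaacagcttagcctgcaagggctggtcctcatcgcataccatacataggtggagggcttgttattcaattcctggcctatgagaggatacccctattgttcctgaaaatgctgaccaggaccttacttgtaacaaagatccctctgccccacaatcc
Tie1: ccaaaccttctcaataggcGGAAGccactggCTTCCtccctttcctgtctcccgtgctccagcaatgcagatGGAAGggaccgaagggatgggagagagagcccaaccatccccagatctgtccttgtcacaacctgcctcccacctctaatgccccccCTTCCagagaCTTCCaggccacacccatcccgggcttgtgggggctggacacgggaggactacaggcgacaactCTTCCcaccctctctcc
Vegfb carried 4 GC boxes and Vegfa carried 2, whereas Tek and Tie1 carried none. Of 27025 windows of this length, 33.0% held at least 1 GC box. Tie1 carried 6 ETS cores, Vegfa carried 1, and Tek and Vegfb carried none, and 63.7% of all windows held at least 1. The hypoxia response core ACGTG was in none of the 4 windows and in 16.5% of all windows, and its other form GCGTG was in the Vegfb window 2 times, at 237 and 81 bases before the start, in none of the other 3 and in 28.3% of all windows. A match of letters is a description and not a binding site.

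Libraries held 1.99e+07 to 3.27e+07 counted reads. Levels are in CPM, a gene's reads scaled to a common library size. A gene at 3 counts stands at 0.0843 to 0.207 CPM, depending on the library, a limit that covers counting error only, and the members had at least 73 counts in every library. CPM were computed with TMM scaling over the 13 libraries. Aged IgG2a replicate 1 stood apart from its group. On the first principal component of log2 CPM, which held 40.7% of the variance, it lay at -16.4, whereas replicates 2, 3 and 4 lay between 71.6 and 84.2. Fits and tests against the aged IgG2a group are therefore given with and without aged IgG2a replicate 1. That choice rests on these same data, and no label gives a reason to leave the library out. Aged aPD1ab replicate 2 also lay apart on this component, at -64.9, whereas replicates 1, 3 and 4 of its group lay between -13.9 and 10.9. It entered every main fit, and leaving it out was among the alternatives. Columns of the deposited table carry bare numbers, which were tied to groups through a podocyte component plot in the study that labels its points with them, and 2 columns that it does not show were not used. The labels list 5 samples in each group, so 1 sample of each aged group is not analysed here, and a replicate number only names a column.

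The labelled cell type was checked against 12 podocyte markers, all above 3 counts in every library. Their summed level was 1349 ± 253 CPM (SD, n = 5) in young, 656 ± 85.3 (n = 4) in aged IgG2a and 688 ± 269 (n = 4) in aged aPD1ab libraries. Other cells were present in all of them. The 12 endothelial markers summed to 895 ± 114, 646 ± 13.2 and 674 ± 229 CPM in the same order. Proximal tubule markers (10 genes) summed to 10120 to 15243 CPM in young, 1300 to 7386 in aged IgG2a and 7552 to 21507 in aged aPD1ab libraries, and leukocyte markers (10 genes) to 4752 to 7844, 5705 to 16640 and 3597 to 11440 CPM. The high end of the proximal tubule range and the low end of the leukocyte range among aged IgG2a libraries both belonged to replicate 1. Mesangial and mural markers (10 genes) summed to 460 ± 61.7, 225 ± 33.7 and 226 ± 11.1 CPM, and markers of the loop of Henle and later tubule (7 genes) to 8104 ± 1175, 7957 ± 3621 and 7803 ± 2179 CPM. In bulk samples fewer cells of a type and less RNA per cell cannot be told apart.

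Set per kilobase of exon, so that genes can be compared, Vegfa was the highest of the 10 members in young libraries at 54.1 ± 3.07 CPM per kb (SD, n = 5). Nrp1 followed at 27.8 ± 1.71 and Kdr at 25.0 ± 3.13, with overlapping ranges. Vegfb, at 17.6 ± 1.80 CPM per kb, overlapped the range of Kdr but not that of Tie1, at 13.3 ± 1.77, and Tie1 overlapped Tek at 12.8 ± 1.77. Flt1 at 6.58 ± 1.11 and Angpt2 at 5.81 ± 0.924 CPM per kb were not separated from each other. Vegfc and Angpt1 were lowest at 1.92 ± 0.134 and 1.90 ± 0.275 CPM per kb and overlapped. In aged aPD1ab libraries the order changed at the second place, which Vegfb held at 31.8 ± 2.31 CPM per kb (n = 4), below Vegfa at 50.1 ± 8.25 and above Nrp1 at 18.8 ± 6.91 without overlap with either. In aged IgG2a libraries the ranges of Vegfa, Nrp1 and Vegfb overlapped from one to the next, with means of 29.9 ± 16.5, 21.8 ± 1.89 and 20.7 ± 9.08 CPM per kb.

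**Figure D1:**
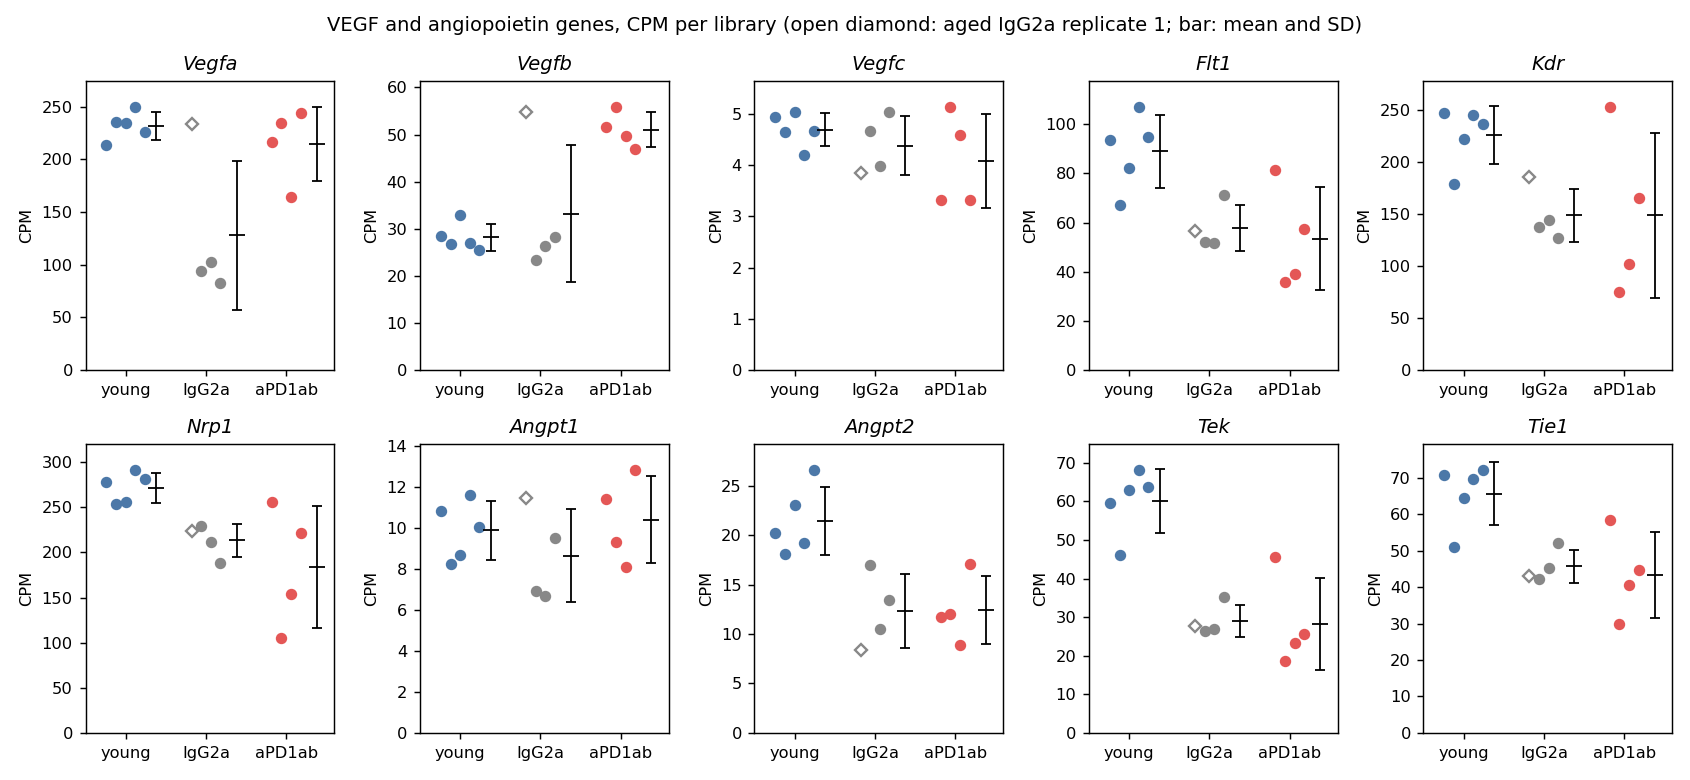
Level of each of the 10 genes in CPM (linear axes from 0) in the 13 libraries, with points for libraries and bars for the mean ± SD of a group. The open diamond is aged IgG2a replicate 1, which lies at 233 CPM for Vegfa and 54.8 CPM for Vegfb while the other 3 aged IgG2a libraries lie at or below 103 and 28.3 CPM.

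Vegfa (ENSMUSG00000023951, chr17:46016993-46032369, minus strand, 8 exon blocks) stood at 214, 236, 234, 249 and 226 CPM in young replicates 1 to 5. In aged IgG2a replicates 1 to 4 it stood at 233, 94.3, 103 and 82.2 CPM, and in aged aPD1ab replicates 1 to 4 at 216, 234, 165 and 244 CPM. Replicate 1 of the aged IgG2a group lay within the young range, and its other 3 libraries lay below every library of the other groups. Vegfb (ENSMUSG00000024962, chr19:6982473-6987651, minus strand), a ligand of VEGFR1 linked to fatty acid uptake by endothelium, stood at 28.5, 26.8, 33.0, 27.0 and 25.6 CPM in young libraries. It stood at 54.8, 23.3, 26.3 and 28.3 CPM in aged IgG2a and at 51.5, 55.8, 49.7 and 46.9 CPM in aged aPD1ab libraries. All 4 aged aPD1ab libraries were above all 5 young ones, and again aged IgG2a replicate 1 alone of its group lay among them. Vegfc (ENSMUSG00000031520, chr8:54077606-54187096, plus strand), the lymphangiogenic ligand of VEGFR3, ranged from 3.32 to 5.13 CPM over all 13 libraries, and all groups overlapped.

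The VEGF receptors were lower in most aged libraries. Kdr (ENSMUSG00000062960, chr5:75932827-75978458, minus strand) stood at 247, 178, 222, 245 and 236 CPM in young, 185, 137, 145 and 127 in aged IgG2a, and 252, 75.0, 102 and 165 in aged aPD1ab libraries. Aged aPD1ab replicate 1 was the highest library of all, the other 3 of its group were below every young library, and aged IgG2a replicate 1 was above the lowest young one. Flt1 (ENSMUSG00000029648, chr5:147561604-147726011, minus strand) stood at 93.6, 67.1, 82.1, 107 and 94.8 CPM in young, 56.5, 52.1, 51.5 and 71.2 in aged IgG2a, and 81.5, 36.0, 39.0 and 57.4 in aged aPD1ab libraries. Young replicate 2 was the lowest young library for both receptors, and each aged group overlapped the young range through 1 library for Flt1. Nrp1 (ENSMUSG00000025810, chr8:128358604-128503363, plus strand) stood at 278, 253, 255, 291 and 281 CPM in young, 224, 229.7, 211 and 188 in aged IgG2a, and 256, 105, 154 and 221 in aged aPD1ab libraries. The aged IgG2a libraries were all below the young ones, whereas aged aPD1ab replicate 1 fell inside the young range. An exon of Nrp1 shares 80 bases with a microRNA gene.

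Among the angiopoietins, Angpt2 (ENSMUSG00000031465, chr8:18690263-18741562, minus strand) stood at 20.2, 18.1, 23.1, 19.2 and 26.6 CPM in young, 8.41, 16.9, 10.5 and 13.5 in aged IgG2a, and 11.7, 12.0, 8.85 and 17.1 in aged aPD1ab libraries. All 8 aged libraries were below all 5 young ones. Angpt1 (ENSMUSG00000022309, chr15:42424723-42676977, minus strand) ranged from 8.24 to 11.6 CPM in young, 6.68 to 11.5 in aged IgG2a and 8.11 to 12.8 in aged aPD1ab libraries, with overlap of every group. Its exons share 737 bases with an antisense gene, and the strand setting of the counting is not given in the sources used here, so reads of the pair cannot be told apart.

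Tek (ENSMUSG00000006386, chr4:94739289-94874976, plus strand) separated the young from all aged libraries. It stood at 59.5, 46.2, 62.9, 68.2 and 63.7 CPM in young, 27.7, 26.5, 26.8 and 35.2 in aged IgG2a, and 45.5, 18.6, 23.2 and 25.5 in aged aPD1ab libraries. All 8 aged libraries were below all 5 young ones, by the smallest margin for aged aPD1ab replicate 1. Tie1 (ENSMUSG00000033191, chr4:118471191-118490061, minus strand) stood at 70.8, 51.0, 64.6, 69.7 and 72.1 CPM in young, 43.1, 42.2, 45.4 and 52.0 in aged IgG2a, and 58.4, 30.0, 40.6 and 44.7 in aged aPD1ab libraries. Young replicate 2 lay among the aged libraries, so both aged groups overlapped the young group.

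Aged IgG2a and young libraries were compared to ask how the genes differed between aged control and young mice. Tek fell by 0.98 on the log2 scale (SE 0.14), which was 1.98-fold lower (edgeR adjusted p = 0.00478). Angpt2 fell by 0.73 (SE 0.21, edgeR adjusted p = 0.0412), Flt1 by 0.56 (SE 0.15, edgeR adjusted p = 0.0373), Kdr by 0.54 (SE 0.15, edgeR adjusted p = 0.0335) and Tie1 by 0.46 (SE 0.12, edgeR adjusted p = 0.0339). Thus 5 of the 10 members were called lower and 0 higher, whereas of 15953 genes tested 8.38% were called lower and 9.05% higher. The median log2 difference was -0.50 over the 10 members and 0.038 over all genes tested.

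No VEGF ligand was called, nor was Nrp1, in that comparison. Vegfa differed by -0.80 (SE 0.27, edgeR adjusted p = 0.0689), Nrp1 by -0.29 (SE 0.12, edgeR adjusted p = 0.108), and Vegfb by 0.29 (SE 0.22, edgeR adjusted p = 0.361). Without aged IgG2a replicate 1, Vegfa fell by 1.26 (SE 0.10, edgeR adjusted p = 1.02e-05), which was 2.40-fold lower, and Nrp1 fell by 0.32 (SE 0.10, edgeR adjusted p = 0.0255). The same 5 genes as before were also called lower, with Tek at -0.97, Kdr at -0.67, Angpt2 at -0.59, Flt1 at -0.56 and Tie1 at -0.44. The count was then 7 of 10 lower and 0 higher, beside 23.5% of genes called lower and 22.1% called higher among 16216. Angpt1 differed by -0.31 (edgeR adjusted p = 0.145), Vegfb by -0.065 and Vegfc by 0.013 in that fit.

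These calls differed in how far they rested on single libraries. Tek was past the threshold in 16 of 18 alternative settings, the exceptions being those with the proximal tubule or the endothelial marker score as a covariate. Leaving out young replicate 1, 3, 4 or 5, or aged IgG2a replicate 3, left only Tek called among the members. Leaving out aged IgG2a replicate 2 or 4 left 2 or 3 of them called. The calls over all genes moved as well in every fit with 1 library left out. From 2780 in the main fit they went to between 553, without aged IgG2a replicate 3, and 7397, without aged IgG2a replicate 1. Whether members lost calls more often than other genes was not tested.

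Aged aPD1ab and aged IgG2a libraries were compared to ask what the anti-PD-1 antibody changed in aged mice. With all libraries none of the 10 members was called, and neither was any of 15530 genes (0% higher and 0% lower by edgeR, with 4341 genes at an unadjusted p under 0.05). DESeq2 called 2373 genes and limma voom with sample quality weights called 6177, of which 0 and 3 were members (Vegfa, Vegfb and Angpt1). Vegfa differed by 0.74 (SE 0.33, edgeR adjusted p = 0.179) and Vegfb by 0.61 (SE 0.25, edgeR adjusted p = 0.154). The receptors differed by -0.018 for Kdr (SE 0.34), -0.062 for Tek (SE 0.26), -0.091 for Tie1 (SE 0.19), -0.13 for Flt1 (SE 0.25) and -0.23 for Nrp1 (SE 0.26).

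Without aged IgG2a replicate 1 both ligands were higher in aged aPD1ab libraries and no receptor was called. Vegfa was higher by 1.18 (SE 0.18, edgeR adjusted p = 0.00735), which was 2.27-fold, and Vegfb by 0.95 (SE 0.12, edgeR adjusted p = 0.00640), which was 1.93-fold. All 4 aged aPD1ab libraries were above the 3 remaining aged IgG2a libraries for both. This separation follows from the removal, since replicate 1 was the only aged IgG2a library that reached the aged aPD1ab levels of either ligand. Its removal was chosen from these same data, so these p-values are to be read with that choice in mind. Of the fits with 1 library left out this one called the most genes, 4788, against 0 with all libraries. The 2 members called higher and 0 called lower stand beside 17.1% of genes called higher and 13.2% called lower among 15770. Kdr differed by 0.091 (SE 0.37), Tek by -0.095 (SE 0.28), Tie1 by -0.13 (SE 0.20), Flt1 by -0.15 (SE 0.28), Nrp1 by -0.22 (SE 0.28) and Angpt2 by -0.16 (SE 0.25). Angpt1 differed by 0.41 (SE 0.21, edgeR adjusted p = 0.174).

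Aged aPD1ab and young libraries were compared last, a comparison that needs no aged IgG2a library. Vegfb was higher by 0.87 (SE 0.10, edgeR adjusted p = 0.00282), which was 1.82-fold, and was past the threshold in all 18 alternative settings. Tek fell by 1.08 (SE 0.24, edgeR adjusted p = 0.0120), Angpt2 by 0.77 (SE 0.19, edgeR adjusted p = 0.0174) and Tie1 by 0.58 (SE 0.18, edgeR adjusted p = 0.0400). Among the 10 members 1 was called higher and 3 lower, beside 12.4% of genes called higher and 9.97% called lower among 15986. Flt1 differed by -0.72 (SE 0.24, edgeR adjusted p = 0.0529), Kdr by -0.59 (SE 0.30, edgeR adjusted p = 0.183), Nrp1 by -0.55 (SE 0.22, edgeR adjusted p = 0.103) and Vegfa by -0.098 (SE 0.13, edgeR adjusted p = 0.621). Leaving out aged aPD1ab replicate 1, which had the highest receptor levels of its group, raised the count of members called from 4 to 7. With the endothelial score as a covariate only Vegfb was called. Over all genes, 3578 were called in the main fit, 3868 without that library and 834 with the covariate. The 3 comparisons share libraries pairwise and are not independent of each other.

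**Figure D2:**
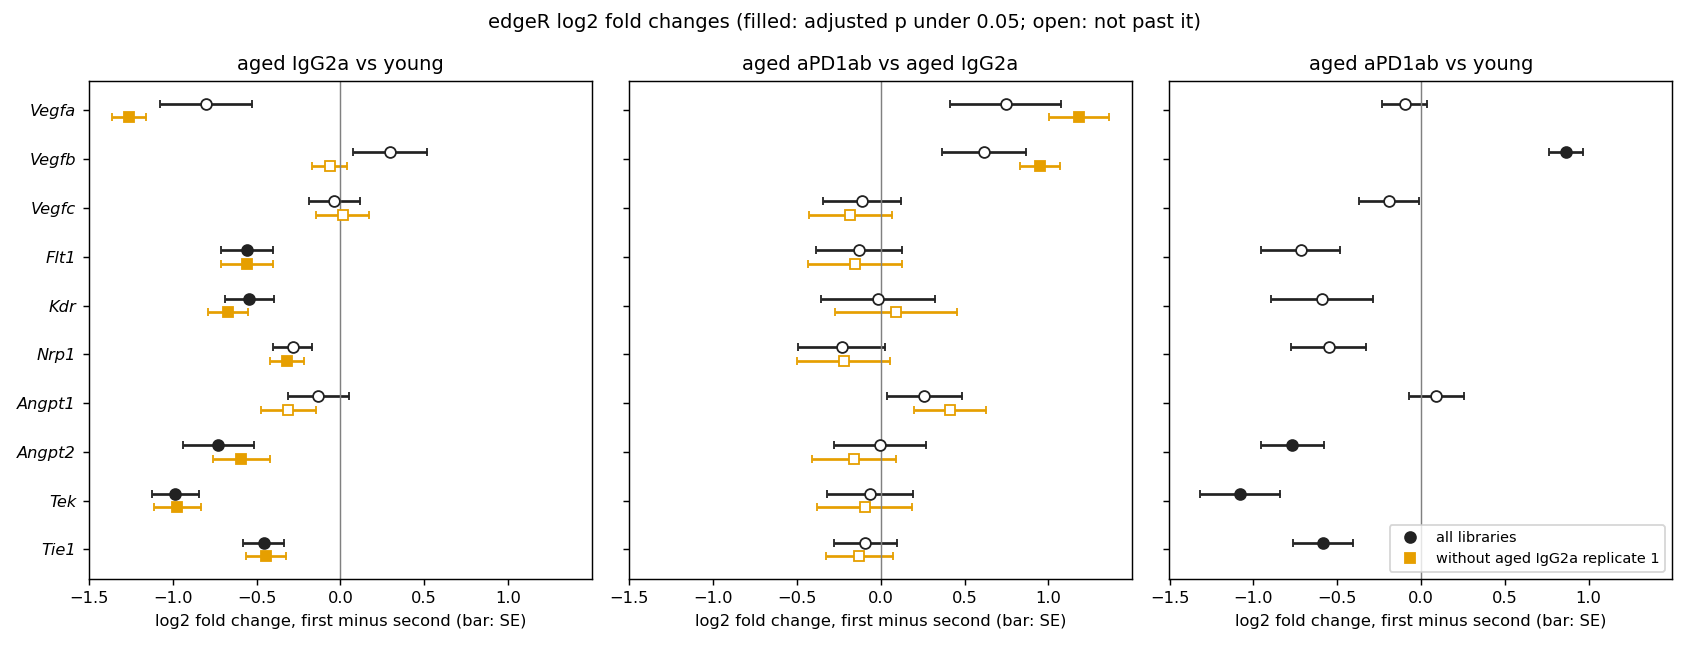
Log2 fold change (first group minus second) of each of the 10 genes in 3 comparisons, with bars of 1 SE, from all libraries (black circles) and without aged IgG2a replicate 1 (orange squares). Filled symbols passed an edgeR adjusted p under 0.05. Vegfa and Vegfb move between the fits of aPD1ab vs IgG2a, from 0.74 to 1.18 and from 0.61 to 0.95, while the receptors stay between -0.23 and 0.091 in both.

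Endothelial markers were also lower in aged libraries. In aged IgG2a against young 6 of 12 were called lower and none higher, and in aged aPD1ab against young 3 of 12 were called lower. Of all genes, 8.38% and 9.97% were called lower in these comparisons. The markers differed unevenly in aged IgG2a against young, with 11 lower and 1 higher, from -0.92 for Ehd3 to -0.013 for Eng and 0.052 for Plvap. The receptors were therefore set against the summed endothelial markers of the same library, a sum that mixes these differences. Tek made up 6.71% ± 0.173 (SD, n = 5) of that sum in young, 4.49% ± 0.596 (n = 4) in aged IgG2a and 4.17% ± 0.623 (n = 4) in aged aPD1ab libraries, and every aged library was below every young one. The log2 ratio differed from young by -0.59 in aged IgG2a and by -0.70 in aged aPD1ab libraries (exact permutation p = 0.00794 for each, two-sided, the smallest these group sizes allow, adjusted p = 0.0952 over 24 ratio tests). Tie1, in contrast, made up 7.33% ± 0.365, 7.07% ± 0.664 and 6.58% ± 0.716, with overlapping groups (exact permutation p = 0.460 and 0.0714 against young). Kdr made up 25.2% ± 1.47, 22.9% ± 3.71 and 21.0% ± 4.16, and Flt1 made up 9.91% ± 0.783, 8.94% ± 1.31 and 7.89% ± 0.723. Flt1 relative to these markers differed by -0.33 between aged aPD1ab and young libraries (exact permutation p = 0.0159, adjusted p = 0.0952). Without aged IgG2a replicate 1, the differences from young in the aged IgG2a group were -0.56 for Tek, -0.25 for Kdr and -0.85 for Vegfa over the endothelial sum (exact permutation p = 0.0179 for each, the smallest 3 against 5 libraries allow, adjusted p = 0.0714). With that replicate Kdr stood at -0.15 (exact permutation p = 0.214) and Vegfa at -0.53 (exact permutation p = 0.111), and Tie1 without it stood at -0.021 (exact permutation p = 0.839). Between aPD1ab and IgG2a, Tek over the endothelial sum differed by -0.11 with it and -0.14 without it (exact permutation p = 0.543 and 0.457). None of the 24 ratio tests passed an adjusted p of 0.05, with or without it. A shift in which kind of endothelial cell was held on the column was not tested.

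Tie1 and Tek, which encode partner receptors, were also set against each other within a library. The ratio of Tie1 to Tek per kilobase was 1.05 ± 0.0677 in young, 1.51 ± 0.0849 in aged IgG2a and 1.53 ± 0.211 in aged aPD1ab libraries. The highest young library stood at 1.14 and the lowest aged one, aged aPD1ab replicate 1, at 1.23. The ratio of Vegfa to Vegfb was 3.11 ± 0.352 in young, 1.41 ± 0.223 in aged IgG2a and 1.58 ± 0.288 in aged aPD1ab libraries, and aged IgG2a replicate 1 was at 1.59, the highest of its group and below the young range of 2.66 to 3.46. Both ratios were chosen after their values were seen and were not tested.

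**Figure D3:**
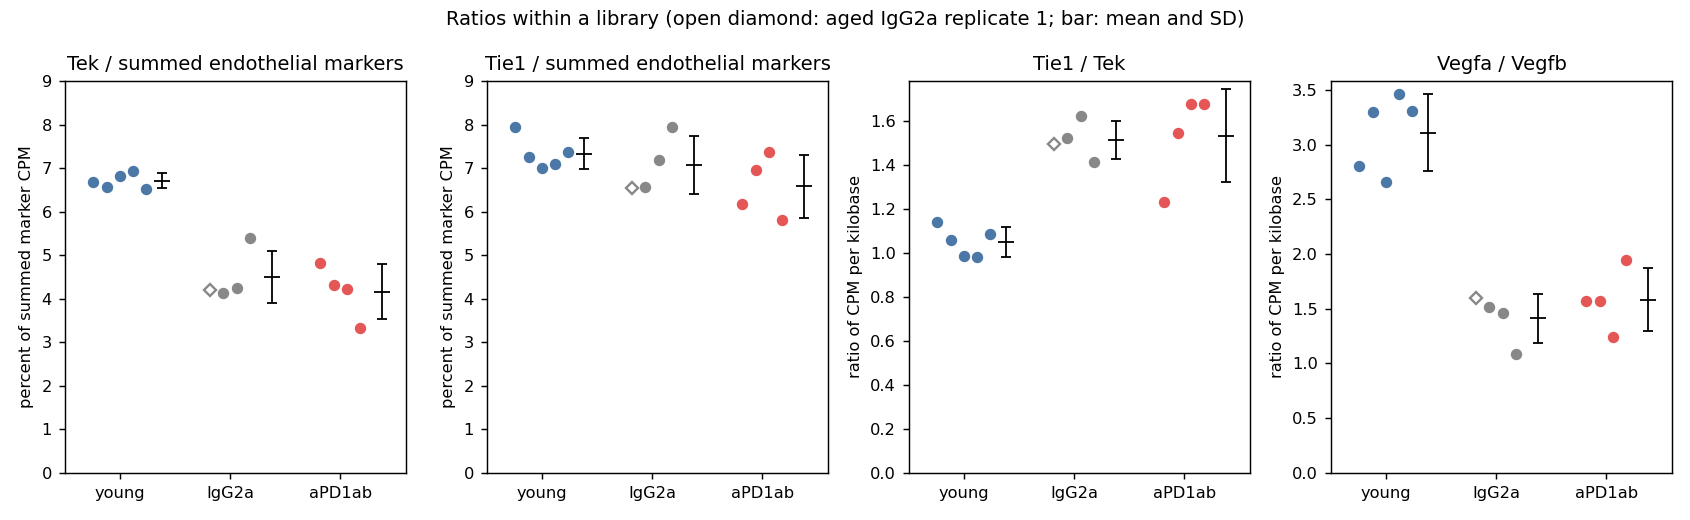
Tek and Tie1 as a percent of the summed CPM of 12 endothelial markers, and the ratios of Tie1 to Tek and Vegfa to Vegfb in CPM per kilobase, in each library (points) with the mean ± SD (bars), on axes from 0. The open diamond is aged IgG2a replicate 1, which lies outside the young range in all 4 panels.

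Across the aged libraries, proximal tubule markers were lowest and leukocyte markers highest where Vegfa was lowest. Over all 13 libraries the Pearson correlation of Vegfa was 0.93 with the proximal tubule list, -0.86 with the leukocyte list and 0.67 with the podocyte list. With group means removed these were 0.82, -0.81 and 0.31. The 3 aged IgG2a libraries with Vegfa at or below 103 CPM had summed proximal tubule markers of 1300 to 2165 CPM and leukocyte markers of 14344 to 16640 CPM. The 10 other libraries, with Vegfa at 165 CPM or more, had 7386 to 21507 and 3597 to 11440 CPM. The share of reads from mitochondrial genes also differed along this split, at 38.7% to 54.9% in those 3 libraries, 29.3% in aged IgG2a replicate 1, 23.1% to 30.4% in young and 20.4% to 38.5% in aged aPD1ab libraries, and its part in the levels was not tested. The podocyte sum of aged IgG2a replicate 1, at 595 CPM, lay within the 589 to 772 CPM of its group. Vegfb was at 46.9 to 55.8 CPM in the 5 aged libraries with proximal tubule sums of 7386 CPM or more and at 23.3 to 28.3 CPM in the 3 others, but young libraries had sums of 10120 to 15243 CPM and Vegfb at or below 33.0 CPM. The part of these cells in the ligand levels was not tested. In covariate fits a proximal tubule score turned the Vegfa difference of aPD1ab vs IgG2a to -0.089 and that of Vegfb to -0.045. The summed proximal tubule markers of these groups did not overlap, at 1300 to 7386 CPM in aged IgG2a and 7552 to 21507 CPM in aged aPD1ab libraries. Such a fit can hardly separate the score from the group, so no conclusion is drawn from it. Relative to the summed podocyte markers, Vegfa stood at 17.7% ± 3.57 in young, 20.2% ± 12.7 in aged IgG2a and 36.7% ± 21.3 in aged aPD1ab libraries. The log2 ratio was higher by 0.93 in aged aPD1ab than in young libraries (exact permutation p = 0.0159, adjusted p = 0.0952), with 68.4% in aged aPD1ab replicate 2, the library with the lowest podocyte sum at 342 CPM, and by 0.58 without it. The aged IgG2a mean rested on replicate 1 at 39.2%, since the other 3 libraries were at 13.3% to 14.2%. The ratio differed by 0.042 between aged IgG2a and young and by 0.89 between aPD1ab and IgG2a (exact permutation p = 0.921 and 0.114), and by -0.33 and 1.26 without that replicate (exact permutation p = 0.143 and 0.0571). With all libraries and the mean log2 CPM of the podocyte markers in place of their sum, the differences of 0.042 and 0.89 became 0.73 and 0.19. Which comparison carried the larger difference thus depended on how the markers were combined.

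**Figure D4:**
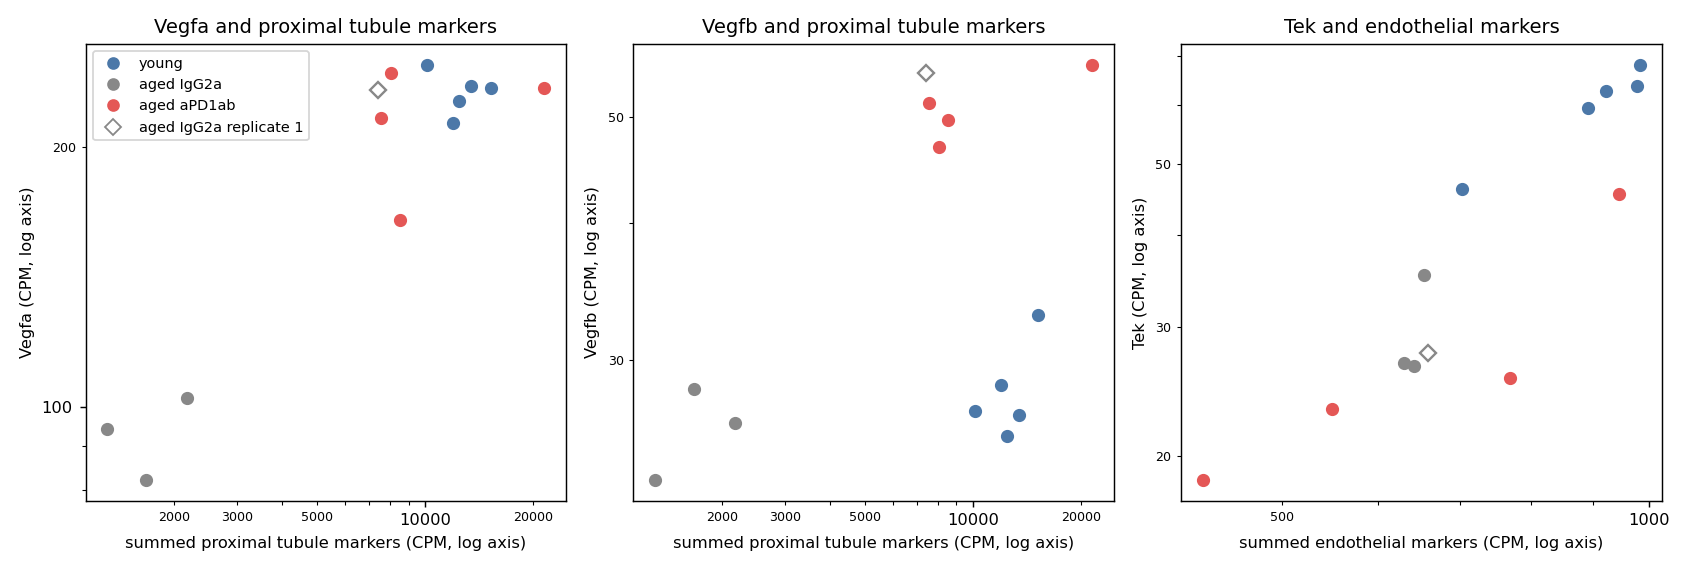
Vegfa and Vegfb against summed proximal tubule markers and Tek against summed endothelial markers, in CPM on log axes, 1 point per library. The 3 filled aged IgG2a points are apart at 1300 to 2165 CPM of proximal tubule markers, and all aged libraries lie lower in Tek than young libraries, also where their endothelial sums overlap.

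Other genes of the pathway were read from lists. Of 6 further VEGF and angiopoietin genes, Nrp2, a co-receptor for VEGF-C, was called higher in aged IgG2a than in young libraries by 0.73 (SE 0.19, edgeR adjusted p = 0.0323), and none was called lower. Without aged IgG2a replicate 1 Nrp2 was higher by 0.89 (SE 0.11, edgeR adjusted p = 1.48e-04) and Ptprb fell by 0.50 (SE 0.16, edgeR adjusted p = 0.0237). Ptprb, which encodes the phosphatase VE-PTP that acts on Tie2, stood at 177 ± 35.3, 116 ± 15.5 and 90.4 ± 37.7 CPM in young, aged IgG2a and aged aPD1ab libraries and fell by 0.96 in the last against young (SE 0.25, edgeR adjusted p = 0.0238), the only gene of this list called there. In aged IgG2a against young with all libraries Ptprb stood at -0.54 (edgeR adjusted p = 0.0513). Flt4, which encodes VEGFR3, stood at 15.4 ± 1.80, 12.8 ± 3.10 and 10.6 ± 3.98 CPM and was not called. In aPD1ab vs IgG2a none of the 6 was called with or without aged IgG2a replicate 1. Of all genes, 0% were called there with all libraries, and 17.1% higher and 13.2% lower without that replicate. In aged IgG2a against young the shares called higher and lower were 9.05% and 8.38%, or 22.1% and 23.5% without it. In aged aPD1ab against young they were 12.4% and 9.97%.

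Of 6 signaling partners of the receptors, 5 passed the filter on low counts. Dok2, an adaptor that is also expressed in leukocytes, was higher by 2.06 (SE 0.29, edgeR adjusted p = 0.00476) in aged IgG2a and by 1.48 (SE 0.22, edgeR adjusted p = 0.00387) in aged aPD1ab than in young libraries. Without aged IgG2a replicate 1 the first of these was 2.21 (SE 0.25, edgeR adjusted p = 1.00e-04). Shb, an adaptor of VEGFR2, was higher by 0.69 in aged aPD1ab than in young libraries (SE 0.17, edgeR adjusted p = 0.0187). It was higher by 1.29 than in aged IgG2a libraries without replicate 1 (SE 0.23, edgeR adjusted p = 0.00814), and stood at 0.97 with it (edgeR adjusted p = 0.110). In aged IgG2a against young Shb fell by 0.57 without that replicate (SE 0.12, edgeR adjusted p = 0.00288) and stood at -0.24 with it (edgeR adjusted p = 0.445). Plcg1, the phospholipase that VEGFR2 activates, stood at 44.1 ± 2.56, 35.1 ± 2.73 and 40.8 ± 1.90 CPM in young, aged IgG2a and aged aPD1ab libraries and was called lower only in aged IgG2a against young without replicate 1, by 0.33 (SE 0.077, edgeR adjusted p = 0.00548).

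Vegfa is a target of the hypoxia-inducible factors, and 15 genes of that pathway were listed. In aged IgG2a against young libraries 1 was called higher and 1 lower, beside 9.05% and 8.38% of all genes, and without aged IgG2a replicate 1 the counts were 1 and 6, beside 22.1% and 23.5% of all genes. In aPD1ab vs IgG2a none was called with all libraries, and 5 were called higher and 1 lower without that replicate, beside 17.1% and 13.2% of all genes. In aged aPD1ab against young libraries 1 was called higher and 3 lower, beside 12.4% and 9.97% of all genes. Ndrg1, the most abundant of the list, stood at 983 ± 102, 414 ± 366 and 1355 ± 773 CPM in young, aged IgG2a and aged aPD1ab libraries, and without replicate 1 was higher by 2.54 in aged aPD1ab than in aged IgG2a libraries (SE 0.49, edgeR adjusted p = 0.0105). Ldha, which encodes lactate dehydrogenase A, was higher by 0.92 in the same fit (SE 0.22, edgeR adjusted p = 0.0178). Epas1, which encodes HIF-2α and is abundant in endothelium, fell by 0.51 in aged IgG2a (SE 0.16, edgeR adjusted p = 0.0494, or by 0.45 with adjusted p = 0.0180 without replicate 1) and by 0.60 in aged aPD1ab libraries (SE 0.17, edgeR adjusted p = 0.0301) against young.

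Genes most like 3 members were found by the Pearson correlation of log2 CPM over the 13 libraries among 9504 genes with a mean of at least 10 CPM, as a description in which the libraries share their group and cell makeup. Tek was most like Tie1 (0.96), Fgd5 (0.96), Flt1 (0.95), Hmbox1 (0.95) and Ehd2 (0.95), so that 2 of its 5 nearest genes were members. Kdr was most like Efnb2 (0.98), Ppm1f (0.96), Fgd6 (0.96), Cyyr1 (0.96) and Ehd3 (0.95), the last of which is among the endothelial markers. Vegfa was most like Mapt (0.97), Parva (0.97), Plekha7 (0.97), Plekha6 (0.97) and Ddo (0.97), none of them a member or a podocyte marker. With group means removed, the correlations ranged from 0.78 to 0.94 for Tek, 0.93 to 0.96 for Kdr and 0.92 to 0.97 for Vegfa.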

How the data were processed

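RNA of the podocyte fractions was sequenced, and the deposited table holds whole-number counts of reads per Ensembl gene that the authors made without normalization. The submitters' processing notes name HISAT2, featureCounts and GRCm38 (mm10), with no versions or strand setting. Of its columns 13 were matched to groups and 2 were not used. Positions, symbols and merged exon lengths came from GENCODE M21 (45143 genes), and promoters from RefSeq for 8 of 10 members.

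Main fits used edgeR 4.0.16 under R 4.3.3, and limma 3.58.1 and DESeq2 1.42.0 served as alternatives. For every comparison the libraries of its groups alone entered a robust quasi-likelihood fit of TMM-scaled counts, over genes kept by filterByExpr. P-values were adjusted over all genes tested (Benjamini-Hochberg) and called under 0.05, and the SE is the log2 difference divided by the root of F. Log2 CPM used a prior count of 2. Marker ratios were tested by two-sided exact permutation of libraries. The fit was run on simulated counts with the same dispersion for every gene and no library set apart. That run does not cover data in which a library stands apart, as here. Named were all members, the 3 genes of highest mean CPM of each further list and the 5 genes most like Vegfa, Kdr and Tek. Members, lists and ratios were chosen with earlier results of these data known. Alternatives changed scaling, test, filter (none), groups fitted together, TPM (pseudocount 1), marker covariates and each library in turn. P-values measure the spread between these mice.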

Additional observations from a re-analysis of the deposited data

Results flagged for a closer look

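Samples far from the others of their group were looked for in 48 groups of 4 or 5 values (a member or a summed marker list in a group), where chance gives about 1 in 20, and 5 were found. Tek in aged IgG2a replicate 4 stood at a log2 CPM of 5.14, above the other 3 libraries at 4.73 to 4.79. The summed endothelial markers of young replicate 2 stood at a log2 CPM of 9.46, below the other 4 at 9.80 to 9.94, and that library was also the lowest young one for Flt1, Kdr, Tek and Tie1. The summed proximal tubule markers of aged aPD1ab replicate 2 stood at a log2 CPM of 14.39, above the other 3 at 12.88 to 13.06. In aged IgG2a replicate 1 the summed markers of the loop of Henle and later tubule stood at a log2 CPM of 13.71, above the other 3 at 12.50 to 12.63, and the summed leukocyte markers at 12.48, below the other 3 at 13.81 to 14.02. The part of these libraries' cell makeup in the members' levels was not tested.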

How the results depend on the processing

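The cause of the shifts below was not tested. No paired analysis was possible because the labels give the groups no shared replicate numbers. Among single values, leaving out 1 library left 403 on their side of the threshold, while 33 lost and 7 gained a call and 25 turned sign, and the other settings gave 218, 16, 21 and 39. With library totals in place of TMM the median of all genes moved to -0.376 (aged IgG2a vs young), 0.242 (aPD1ab vs IgG2a) and -0.108 (aPD1ab vs young), and with TPM to -0.535, 0.334 and -0.173.

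For aged IgG2a vs young, 2780 genes and 5 members were called, with 553 to 7397 genes and 1 to 7 members when 1 library was left out. The fit of all 3 groups called 3 members, DESeq2 4455 genes, voom 7447 genes, TPM 8153 genes and 9 members, the proximal tubule covariate 37 genes and 1 member (Vegfb, higher), and the endothelial covariate 217 genes and 0 members. Vegfb turned to -0.061 with library totals, -0.014 with voom, -0.49 with TPM and -0.33 with the endothelial covariate, which also turned Vegfc to 0.14 and Tie1 to 0.027. The proximal tubule covariate turned Vegfa to 0.31 and Angpt1 to 0.27. Leaving out 1 library gave -0.065 to 0.42 for Vegfb, -0.13 to 0.013 for Vegfc and -0.33 to 0.19 for Vegfa over podocyte markers.

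For aPD1ab vs IgG2a, 0 genes were called, against 2863 in the fit of all 3 groups, 2373 with DESeq2, 6177 and 3 members with voom and 809 with the endothelial covariate. Leaving out 1 library gave 0 to 4788 genes and 0 to 2 members. The fit of all 3 groups turned Kdr to 0.000151 and Angpt2 to 0.016, voom to 0.077 and 0.067, and the endothelial covariate Angpt2 to 0.014. Library totals turned Vegfc to 0.14, Flt1 0.18, Kdr 0.26, Nrp1 0.048, Angpt2 0.30, Tek 0.24 and Tie1 0.20, and TPM turned them to 0.24, 0.24, 0.29, 0.15, 0.40, 0.30 and 0.31. The proximal tubule covariate turned Vegfa to -0.089, Vegfb -0.045, Flt1 0.18, Kdr 0.11, Nrp1 0.071, Angpt1 -0.035, Angpt2 0.50, Tek 0.32 and Tie1 0.24. Leaving out 1 library gave -0.39 to 0.011 for Flt1, -0.39 to 0.20 for Kdr, -0.20 to 0.17 for Angpt2, -0.38 to 0.085 for Tek, -0.26 to 0.042 for Tie1 and -0.17 to 0.22 for Angpt2 over endothelial markers.

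For aPD1ab vs young, 3578 genes and 4 members were called, against 1233 genes with TPM, 5401 genes and 7 members with the proximal tubule covariate, 834 genes and 1 member with the endothelial covariate, and 2369 to 3868 genes and 3 to 7 members when 1 library was left out. Angpt1 turned to -0.016 with library totals and -0.12 with TPM, and Kdr to 0.059 with the endothelial covariate. Leaving out 1 library gave -0.17 to 0.0085 for Vegfa and -0.030 to 0.19 for Angpt1. The lowest member count, 73 reads of Vegfc in aged IgG2a replicate 4, limits what could be seen for that gene.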

Other observations

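The balance of ligands and receptors was also read per kilobase, as values with no test. The ratio of Angpt2 to Angpt1, the Tie2 ligands of opposite action, was 3.10 ± 0.636 (SD, n = 5) in young, 2.17 ± 0.987 (n = 4) in aged IgG2a and 1.67 ± 0.208 (n = 4) in aged aPD1ab libraries, with a lowest young library at 2.33 and a highest aged aPD1ab library at 1.88. The ratio of Vegfa to Kdr was 2.20 ± 0.360, 1.74 ± 0.612 and 3.73 ± 2.03, and all groups overlapped. Flt1 and Kdr kept a ratio of 0.263 ± 0.0179, 0.268 ± 0.0744 and 0.257 ± 0.0463, with a wider spread in both aged groups than in young libraries.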
